A study of Mus musculus with 9 samples.

Results

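The genes described here encode the transforming growth factor beta (TGF-beta) ligands Tgfb1, Tgfb2 and Tgfb3, the related ligand Gdf10, the receptors Tgfbr1, Tgfbr2 and Tgfbr3, and Smad3, which carries the signal into the nucleus. These 8 genes were chosen by name from 21883 protein-coding mouse genes, with earlier results of these data known. All 8 carried enough open chromatin to be tested, Gdf10 only through that of infants. Open chromatin was measured by ATAC-seq, which uses an enzyme that inserts sequencing adapters where DNA is accessible, in endothelial cells sorted by flow cytometry from mouse lung. There were 3 libraries each from infant, young adult and mature adult mice. The labels give no strain, genotype, sex, treatment or age in days, and no marker used for the sort. Separate animals are not stated for the libraries either, and the p-values therefore reflect the variation among these 9 libraries alone.

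A TGF-beta dimer is secreted in a latent form, bound to matrix proteins, and must be released before it can act. The free ligand binds the type II receptor Tgfbr2, which phosphorylates the type I receptor Tgfbr1, and Tgfbr1 phosphorylates Smad2 and Smad3, which enter the nucleus with Smad4. Tgfbr3 (betaglycan) is a co-receptor that presents ligand, Tgfb2 above all, and endothelial cells also use a second type I receptor, Acvrl1 (ALK1), with the co-receptor Eng (endoglin). In the lung the pathway takes part in forming alveoli and in the growth and stability of vessels.

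Each library is a list of peaks, the stretches called open, with a start and an end and no height or read number. A peak centred inside a gene was given to it, and any other peak to whichever gene end was closest, up to 100 kb away. The lists held 88856 to 94646 peaks in infant, 67550 to 68366 in young adult and 59793 to 64208 in mature adult libraries. One young adult list (replicate 3) and one mature adult list (replicate 1) differed from the other 7 libraries. Their peaks averaged 487 and 495 bp, where the others averaged 529.7 to 564 bp, and 90.5% and 90.7% of their peaks were assigned to a gene, where the others had 91.5% to 93.6%. Their deviations from the mean of their age correlated at 0.28 over genes. Sequencing depth is unknown, and where a list has no peak the DNA may still be open. Because adult lists were shorter, each gene was tested with limma on unscaled numbers and on numbers scaled to the total of each list. A gene is said to have fallen or risen only where the Benjamini-Hochberg adjusted p, over 14447 genes, was below 0.05 in the same direction on both scales. Changes are differences of log2(number + 0.5). All 8 endothelial markers examined, among them Pecam1 and Cdh5, had peaks in every library, 184 to 203 in sum in infant, 167 to 185 in young adult and 150 to 183 in mature adult libraries, and 0 of the 8 fell at either adult age.

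The start sites of the 4 genes whose peak numbers fell with age, Gdf10, Tgfb2, Smad3 and Tgfbr2, differ in sequence and in what happened to the peak over them. The 250 bases upstream of each start are shown for that reason, from RefSeq on GRCm38.p6 (the assembly of mm10), 5′ to 3′ on the gene's strand. Capitals mark CAGAC or its reverse complement GTCTG, the short site bound by Smad proteins.
Gdf10 (chr14:33923337-33923586, plus strand): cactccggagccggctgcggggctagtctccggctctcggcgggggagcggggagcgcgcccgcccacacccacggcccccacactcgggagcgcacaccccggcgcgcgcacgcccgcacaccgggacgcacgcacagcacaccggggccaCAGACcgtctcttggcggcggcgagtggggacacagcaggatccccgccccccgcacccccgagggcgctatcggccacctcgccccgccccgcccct
Tgfb2 (chr1:186705990-186706239, minus strand): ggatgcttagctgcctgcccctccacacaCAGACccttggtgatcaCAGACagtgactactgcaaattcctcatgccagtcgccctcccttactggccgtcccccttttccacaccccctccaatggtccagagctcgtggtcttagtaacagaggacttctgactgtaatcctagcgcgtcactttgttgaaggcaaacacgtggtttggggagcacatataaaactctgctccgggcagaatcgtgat
Smad3 (chr9:63757995-63758244, minus strand): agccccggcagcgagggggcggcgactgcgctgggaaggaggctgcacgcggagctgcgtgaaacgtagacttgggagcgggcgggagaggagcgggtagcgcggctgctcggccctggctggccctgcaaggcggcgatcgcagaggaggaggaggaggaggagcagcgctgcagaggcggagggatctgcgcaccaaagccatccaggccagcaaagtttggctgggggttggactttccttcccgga
Tgfbr2 (chr9:116175364-116175613, minus strand): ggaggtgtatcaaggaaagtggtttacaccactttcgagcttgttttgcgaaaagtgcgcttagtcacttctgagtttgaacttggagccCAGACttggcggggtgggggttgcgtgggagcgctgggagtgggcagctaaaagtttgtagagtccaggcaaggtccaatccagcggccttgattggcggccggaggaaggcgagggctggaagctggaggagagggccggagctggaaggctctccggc
The Gdf10 window held 35 CpG dinucleotides and was 78.8% G or C, against a median of 6 CpG over 32851 mouse promoter windows of this length, and lay at the 97.0th percentile for CpG. The Smad3 window held 22 CpG, the Tgfbr2 window 12 and the Tgfb2 window 8. Upstream of the first of the 2 annotated Tgfbr1 starts there were 29 CpG (74.8% G or C, 93.2nd percentile). The Tgfb1 window held 21 CpG (75.2% G or C). Both of these starts kept a peak in all 9 libraries. The second Tgfbr1 start had 3 CpG upstream and no peak over it in any library. This Smad site occurred at 2 places upstream of Tgfb2, 1 upstream of Gdf10, 1 upstream of Tgfbr2, 1 upstream of the second of the 2 annotated Tgfbr1 starts and none upstream of the first Tgfbr1 start, Tgfb1 or Smad3, and 42.2% of all promoter windows held at least 1. The Sp1/Klf motif GGGCGG occurred 5 times upstream of Tgfb1, which kept its peaks, 4 times upstream of Gdf10 and 2 times each upstream of Smad3 and of the first Tgfbr1 start, and was not found upstream of Tgfb2, Tgfbr2 or the second Tgfbr1 start, with 32.7% of all windows holding it. The ETS core GGAA occurred 4 times upstream of Tgfbr2, 3 times upstream of Smad3, 2 times upstream of Tgfb2, 1 time upstream of Tgfb1, 5 times upstream of the second Tgfbr1 start and not upstream of Gdf10 or the first Tgfbr1 start, and 93.4% of windows held it. The Sox motif ACAAAG was found upstream of Tgfb2 and of both Tgfbr1 starts, and in 16.5% of all windows. GTCTAGAC, the Smad palindrome (0.167% of windows), TGANTCA, the AP-1 site (6.75%), the ETS motif CAGGAAGT (2.69%, which contains GGAA) and GATAA, the GATA site (22.6%), were found upstream of none of the 6 genes with a window. Both strands were searched, and these matches describe letters only. Tgfb3 and Tgfbr3 have no window in the table used.

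Of the 8 genes, 4 lost peaks between infancy and both adult ages: the ligands Tgfb2 and Gdf10, the receptor Tgfbr2 and the transducer Smad3. In young adult libraries 9.27% of all genes tested fell on both scales, and in mature adult libraries 13.8% did. Because the 8 were chosen with earlier results of these data known, the comparison with all genes is a description only. Without the 2 libraries that differed from the rest, the same 4 were called lower on scaled numbers at both ages, and Tgfbr1 was called lower as well in young adults. That setting was fitted on scaled numbers only, which falls short of the rule of both scales. None of the 8 rose on both scales, against 1.14% and 1.45% of all genes. The median scaled change of the 8 was -0.59 in young adult and -0.45 in mature adult libraries, where the median of all genes was 0.13 and 0.14; unscaled, the 8 had medians of -0.99 and -0.97 and all genes -0.25 and -0.31. Together they held 121 to 134 peaks per infant library, 69 to 75 per young adult library and 57 to 75 per mature adult library. Between young and mature adult libraries 0 of the 8 passed the test with limma, and 0 had an unadjusted p below 0.05; 0.644% of all genes fell on both scales in that comparison. On scaled numbers alone, 25.6% of all genes in young adult and 30.0% in mature adult libraries were called higher. Without scaling, 6 of the 8 genes (those above with Tgfbr1 and Tgfbr3) had fewer peaks in every adult library than in any infant library, as had 27.4% of all genes in young adult and 35.6% in mature adult libraries. None of the 8 had fewer in every mature than in every young adult library, where 4.39% of all genes did.

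**Figure D1:**
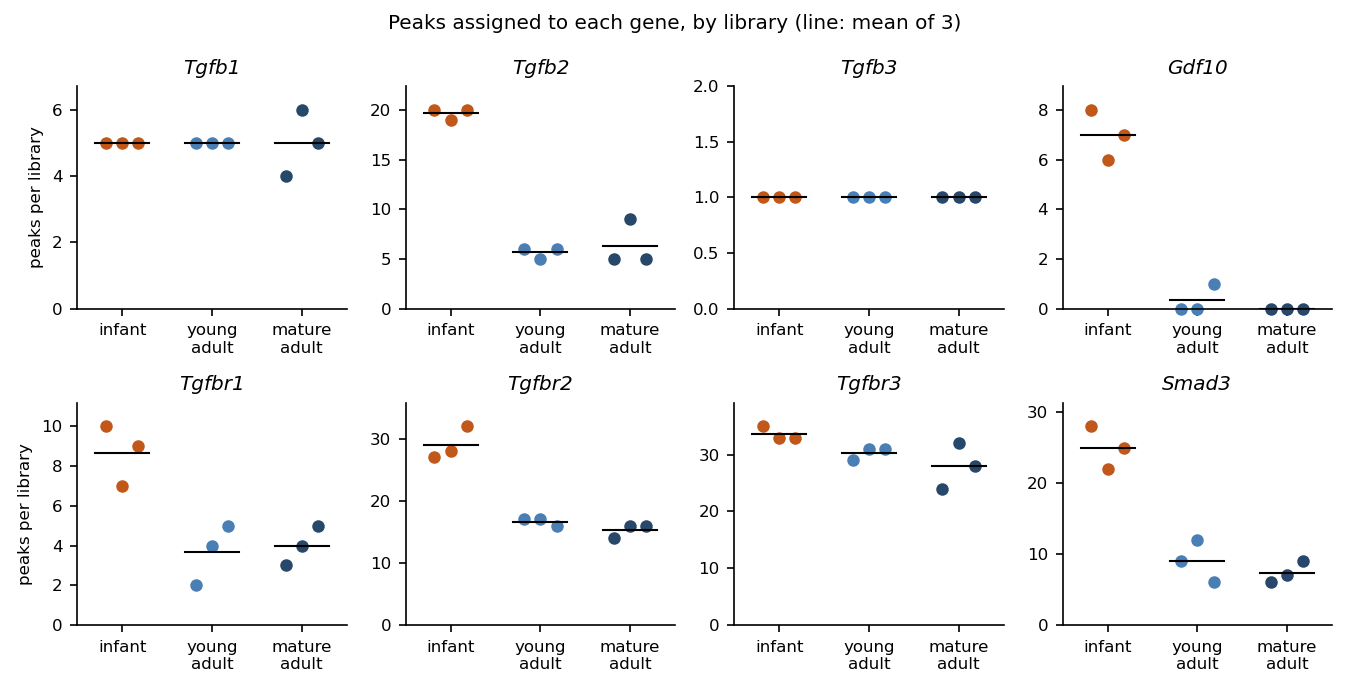
Number of peaks at each of the 8 genes (vertical axis, own scale per gene) in the 3 infant, 3 young adult and 3 mature adult libraries (horizontal axis); each point is a library and each bar the mean of an age. Tgfb2, Gdf10, Tgfbr1, Tgfbr2, Tgfbr3 and Smad3 sit lower in every adult library than in any infant library, while Tgfb1 stays at 4 to 6 and Tgfb3 at 1. Of all genes, 27.4% in young adult and 35.6% in mature adult libraries were lower in this way.

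Among the ligands, Gdf10, a member of the bone morphogenetic protein branch also called BMP3b, lost the regions called in infants. It lies on chromosome 14 between 33923587 and 33936514 and had 8, 6 and 7 peaks in infant libraries, 0, 0 and 1 in young adult libraries and 0 in each mature adult library. The covered length, the bases inside its peaks, was 4023, 3434 and 3052 bp in infants and 0, 0 and 300 bp in young adults. The scaled change was -3.06 ± 0.42 (SE) in young adult libraries (limma adjusted p = 0.00088) and -3.62 ± 0.42 in mature adult libraries (limma adjusted p = 0.00031), sizes that depend on the added 0.5 because adults stood at or near 0. The mean of 1 peak per library needed for testing was reached through infant peaks alone, so only a fall could be called. All 5 regions that every infant library shared were without a peak in all 6 adult libraries. One of them covered the start site (chr14:33923170-33924073), with 903, 595 and 799 bp in infants. The other 4 lay upstream, at 9.94, 37.8, 90.4 and 97.6 kb from the start. The farthest (chr14:33825573-33826485) had 782, 795 and 726 bp. The single adult peak, 300 bp in young adult replicate 3, was 84.4 kb upstream, where no infant library had one. Most Gdf10 regions are thus outside the gene, and the neighbouring ligand gene Gdf2 had 1 peak in each infant library and 0 in every adult library.

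Tgfb2, a ligand needed for heart and vessel development, kept its start site open and lost regions around it. It lies on chromosome 1 between 186622787 and 186709697. It had 20, 19 and 20 peaks in infant libraries, 6, 5 and 6 in young adult and 5, 9 and 5 in mature adult libraries. Infant and adult numbers did not overlap, as for 27.4% of all genes falling in this way in young adults and 35.6% in mature adults. The scaled change was -1.31 ± 0.20 (SE) in young adult (limma adjusted p = 0.0016) and -1.09 ± 0.20 in mature adult libraries (limma adjusted p = 0.0033). Covered length was 11242, 9709 and 10307 bp in infants, 3535, 3021 and 2810 bp in young adults and 2703, 3359 and 2634 bp in mature adults, a ratio of the infant to the mature adult mean of 3.59. The 9 libraries' peaks merged into 22 regions at this gene. Of the 18 that every infant library had, 3 were open in all 6 adult libraries and 8 in none. The start region (chr1:186705056-186706253) stayed in all 9 libraries, with 1137, 1064 and 1132 bp in infants, 1102, 1055 and 901 bp in young adults and 897, 547 and 1030 bp in mature adults. The other retained regions lay 12.7 and 66.9 kb beyond the far end of the gene. The widest of the lost regions (chr1:186581418-186582806), 40.7 kb beyond that end, had 1237, 1162 and 990 bp in infants and no peak in any adult library. At chr1:186683579-186684670, 21.9 kb downstream of the start and inside the gene, infants had 1000, 929 and 1091 bp and young adult replicate 1 had 363 bp, with no peak in the other 5 adult libraries. Mature adult replicate 2, the library with 9 peaks, held 3 of the infant regions and 1 region of its own that the other two mature adult lists lacked: 390 bp at 55.4 kb, 167 bp at 54.5 kb and 180 bp at 35.6 kb beyond the gene, and 250 bp at 36.8 kb. Inside the gene peaks went from 8, 8 and 9 to 4, 3 and 3 and then 2, 2 and 2, and outside it from 12, 11 and 11 to 2, 2 and 3 and then 3, 7 and 3.

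**Figure D2:**
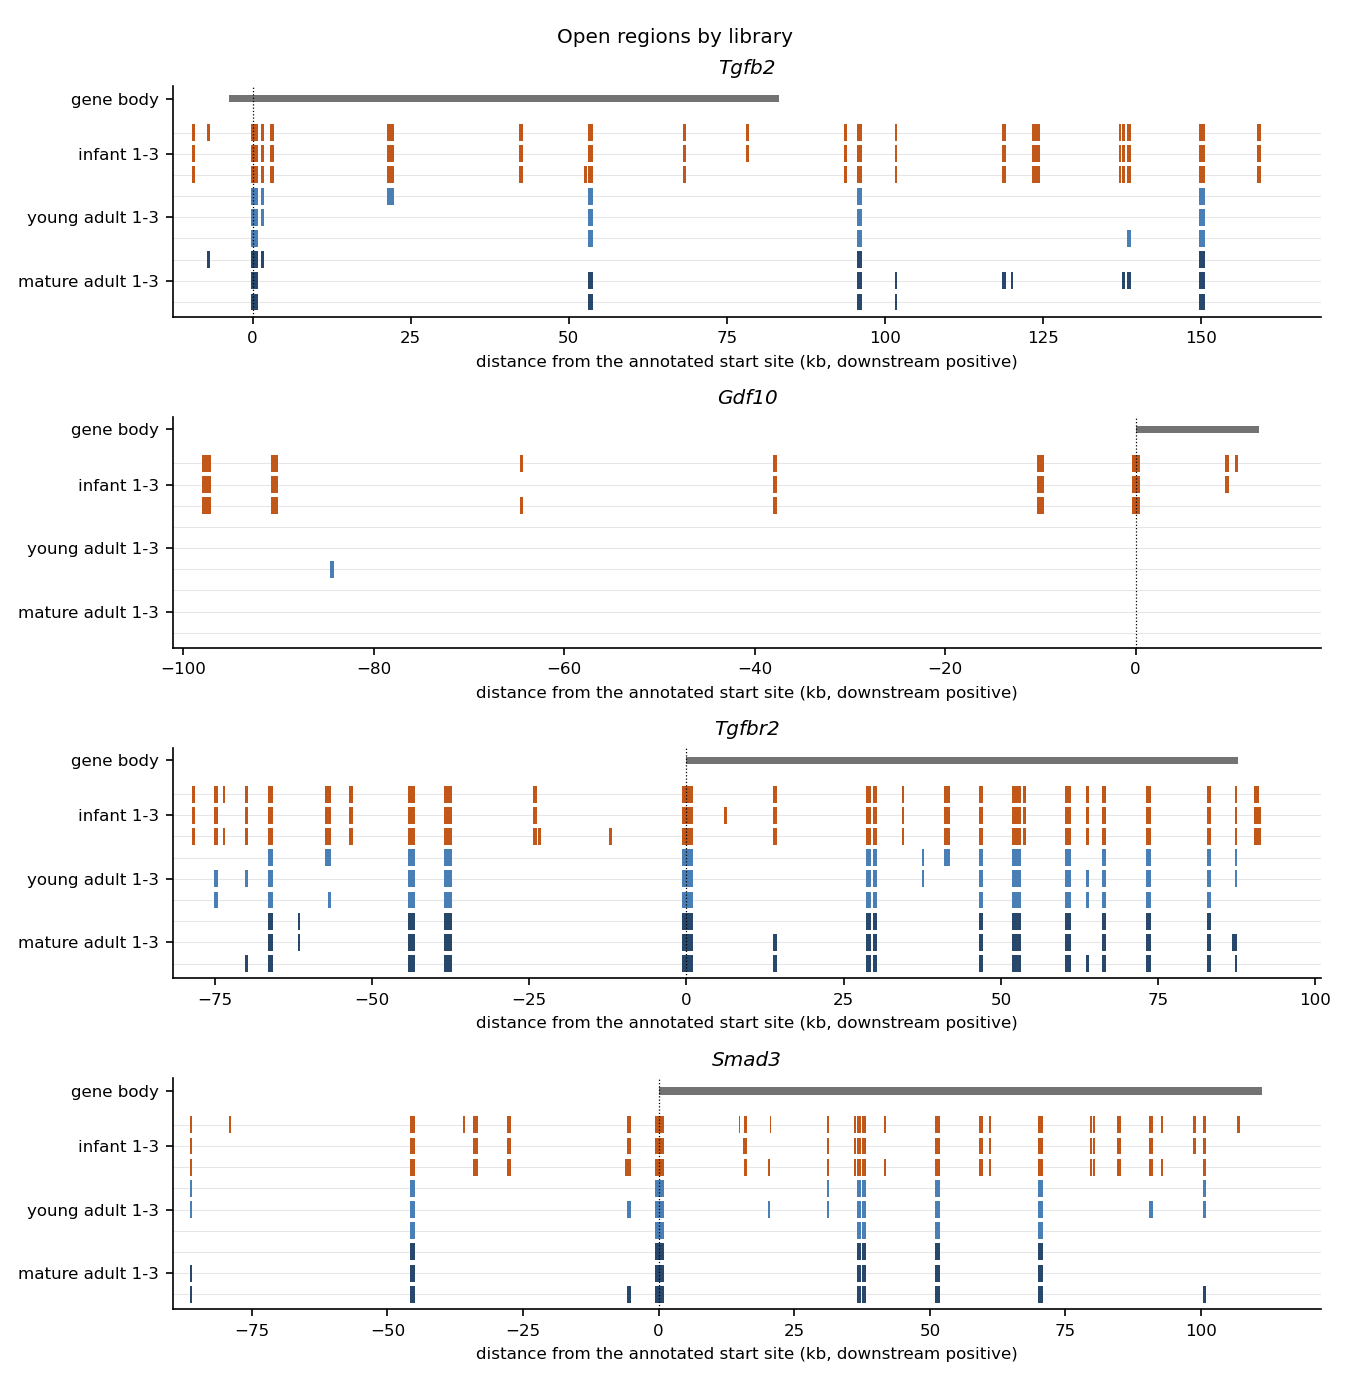
Regions called open at Tgfb2, Gdf10, Tgfbr2 and Smad3 against the distance from the annotated start site in kb (downstream positive), 1 row per library and the gene body as a grey bar; a mark gives the extent of the merged region where that library had a peak, and marks narrower than 0.35 kb are drawn at that width. Gdf10 is empty in all adult rows but for 1 mark, and the start-site marks of Tgfb2, Tgfbr2 and Smad3 run through all 9 rows.

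Tgfb1, the ligand made most widely, and Tgfb3 showed no change in peak number that held on both scales. Tgfb1, on chromosome 7, had 5 peaks in every infant and young adult library and 4, 6 and 5 in mature adult libraries. The constant number gave a scaled change of 0.38 in young adult (limma adjusted p = 0.029) and 0.48 in mature adult libraries (limma adjusted p = 0.0094), and unscaled changes of 0.00 and -0.02 (limma adjusted p = 1.0 for both). All 5 Tgfb1 regions of infants were found again in adults, 4 of them in all 6 libraries, and the start region (chr7:25686702-25687567) had 865, 831 and 856 bp in infants and 807, 612 and 796 bp in mature adults. Tgfb3, on chromosome 12, had 1 peak in all 9 libraries, over an end of the gene (chr12:86078466-86079894). That peak was 1226, 1189 and 1262 bp wide in infants, 853, 887 and 875 bp in young adults and 1040, 1021 and 784 bp in mature adults. Its width was below the infant range in all 6 adult libraries, a separation for which no share of all regions is given here. Of all regions open in all 9 libraries, 80.0% were narrower in mature adult than in infant libraries before centring. Without centring on the library's median width, the Tgfb3 difference had a limma adjusted p of 0.030 in young adult and 0.038 in mature adult libraries. With centring the limma adjusted p was 0.19 and 0.58, so the difference held on 1 scale only.

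**Figure D3:**
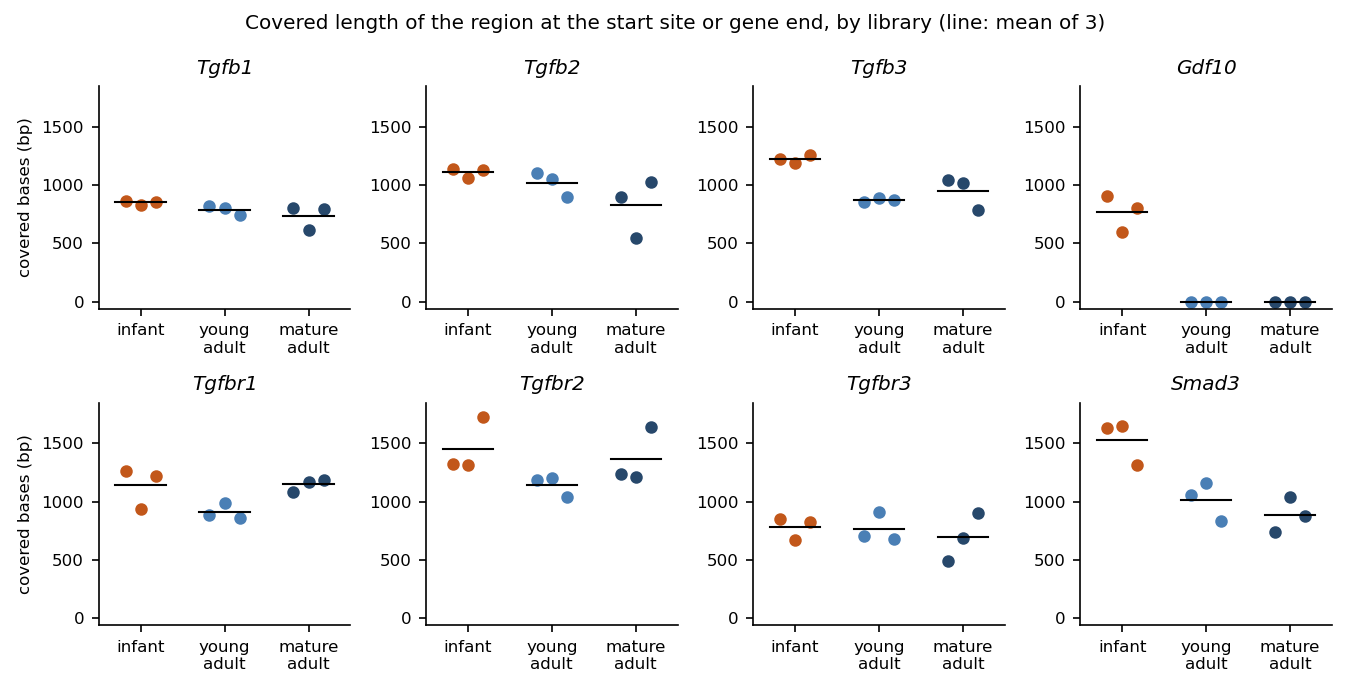
Covered bases (vertical axis, bp) of the region over the annotated start of each gene, or over a gene end for Tgfb3 and Tgfbr3, in the 3 infant, 3 young adult and 3 mature adult libraries; points are libraries and bars means. Gdf10 is at 0 in all 6 adult libraries, and the other 7 genes keep a peak in all 9 libraries.

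Among the receptors Tgfbr2 fell, and most of the lost peaks lay outside the gene. This type II receptor, on chromosome 9 between 116087695 and 116175363, had 27, 28 and 32 peaks in infant libraries, 17, 17 and 16 in young adult and 14, 16 and 16 in mature adult libraries. The scaled change was -0.36 ± 0.08 (SE) at both adult ages (limma adjusted p = 0.012 in young adult and 0.010 in mature adult libraries), and unscaled it was -0.78 and -0.90. Outside the gene body there were 12, 12 and 16 peaks in infants, 5, 5 and 5 in young adults and 5, 4 and 4 in mature adults. Inside there were 15, 16 and 16 in infants, 12, 12 and 11 in young adults and 9, 12 and 12 in mature adults. With only peaks inside the gene the scaled change was 0.00 in young adult and 0.02 in mature adult libraries (limma adjusted p = 0.99 and 0.85), with those over 1 kb from its ends it was -0.02 and -0.06 (limma adjusted p = 0.86 and 0.60), and with intergenic peaks within 10 kb it was -0.14 and -0.07 (limma adjusted p = 0.25 and 0.58); the call rests on regions more than 10 kb away. Of 26 regions shared by the infants, 12 (46.2%) were open in all adult libraries and 6 (23.1%) in none, where over all genes 56.9% and 17.0% were. The widest of the 6 by mean covered bases (chr9:116199055-116199756), 24.0 kb upstream of the start, had 701, 681 and 662 bp in infants. The start region (chr9:116174361-116176091) had 1326, 1312 and 1727 bp in infants, 1187, 1199 and 1036 bp in young adults and 1240, 1207 and 1643 bp in mature adults, with overlap between the infant and mature adult values.

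Tgfbr1, the type I receptor on chromosome 4 between 47353222 and 47414926, had 10, 7 and 9 peaks in infants, 2, 4 and 5 in young adults and 3, 4 and 5 in mature adults. Every adult library was below every infant library, as for 27.4% of all genes in young adults and 35.6% in mature adults. The scaled change of -0.81 ± 0.31 (SE) in young adult libraries had a limma adjusted p of 0.079, and that of -0.53 ± 0.31 in mature adult libraries 0.20; unscaled the p was 0.049 and 0.055, so no call was made. The centre of its start peak lay inside the gene in some libraries and outside it in others. Inside the gene and more than 1 kb from its ends, infants had 6, 3 and 5 peaks, young adults 0, 0 and 0 and mature adults 0, 0 and 1. On these peaks alone, an alternative chosen after seeing the data, the scaled change was -3.05 in young adult and -2.47 in mature adult libraries (limma adjusted p = 0.0021 and 0.0045), sizes that depend on the added 0.5. With all peaks centred in the gene body, the start peak included where it was, it was -2.06 and -2.59 (limma adjusted p = 0.033 and 0.011). In both settings the mean of 1 peak needed for testing was reached through infant peaks alone, so only a fall could be called. Each was fitted on scaled numbers only, and no fall is claimed from them. Without young adult replicate 3, the scaled change in young adults was -1.05 (limma adjusted p = 0.034). Regions lost in all adults were narrow, the widest (chr4:47408831-47409212) having 381, 323 and 281 bp in infants. The start region (chr4:47352456-47353750) stayed, with 1258, 936 and 1221 bp in infants and 1085, 1168 and 1187 bp in mature adults. A region 22.9 kb beyond the other end of the gene (chr4:47437249-47438469) also stayed in all 9 libraries.

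Tgfbr3 held the most peaks of the 8 genes, and the share of its infant regions kept was near that of all genes. It lies on chromosome 5 between 107106567 and 107289629 and had 35, 33 and 33 peaks in infants, 29, 31 and 31 in young adults and 24, 32 and 28 in mature adults. The scaled change was 0.27 ± 0.07 (SE) at both adult ages (limma adjusted p = 0.025 and 0.022), and unscaled it was -0.15 and -0.27 (limma adjusted p = 0.37 and 0.086), so the sign depended on the scaling. Of 31 regions shared by the infants, 17 (54.8%) were open in all 6 adult libraries and 4 (12.9%) in none. Over all genes 56.9% and 17.0% of such regions were. It was the only one of the 8 genes with a region open in all 6 adult and no infant library (chr5:107272629-107273290), which had 476, 329 and 357 bp in young adults and 297, 533 and 553 bp in mature adults and lay inside the gene, 16.7 kb from its end. Such regions made up 0.686% of all 126907 merged regions. When a peak had to cover at least 50% of a region to count, 0 such regions remained at the 8 genes. Leaving out the 2 libraries that differed from the rest, which can only add such regions, gave 2. In all, 8 of the 44 Tgfbr3 regions had a peak in some adult library and in no infant library, as had 21382 of all 126907 merged regions.

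Smad3 lost peaks mainly inside its own long gene. It lies on chromosome 9 between 63646766 and 63757994 and had 28, 22 and 25 peaks in infants, 9, 12 and 6 in young adults and 6, 7 and 9 in mature adults. The scaled change was -1.06 ± 0.24 (SE) in young adult (limma adjusted p = 0.011) and -1.19 ± 0.24 in mature adult libraries (limma adjusted p = 0.0054). Covered length was 14844, 12372 and 11724 bp in infants, 4683, 5978 and 3427 bp in young adults and 2894, 3573 and 4208 bp in mature adults. Inside the gene and more than 1 kb from its ends, infants had 20, 16 and 17 peaks, young adults 6, 8 and 4 and mature adults 4, 4 and 5. Of 20 regions shared by the infants, 6 were open in all adult libraries and 9 in none, 7 of the 9 inside the gene. The widest of the 9 (chr9:63791308-63792138), 33.7 kb upstream, had 819, 800 and 583 bp in infants. The start region (chr9:63757060-63758707) stayed, with 1629, 1644 and 1313 bp in infants, 1053, 1158 and 835 bp in young adults and 737, 1036 and 877 bp in mature adults. Centred on the library median, its log2 width changed by -0.52 ± 0.12 (SE) in mature adults (limma adjusted p = 0.020, and 0.016 uncentred). In young adults its width passed on neither scale (limma adjusted p = 0.083 centred and 0.070 uncentred). Smad6, the neighbouring inhibitory Smad, had 42, 46 and 41 peaks in infants and 38, 45 and 42 in mature adults.

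In covered length, Gdf10, Tgfb2, Tgfbr2 and Smad3 fell on both scales in mature adult libraries, where 18.8% of all genes did. Unscaled, all 8 were lower there, as were 55.6% of all genes. In young adult libraries 5 of the 8 fell, against 12.1% of all genes; the fifth was Tgfbr1, with 4806, 3692 and 4198 bp in infants, 1893, 1794 and 2482 bp in young adults and 1699, 2278 and 2290 bp in mature adults. Its scaled change in covered length was -0.53 in young adult (limma adjusted p = 0.032) and -0.38 in mature adult libraries (limma adjusted p = 0.075). Without the 2 libraries that differed from the rest, a setting added for this measure after seeing the data, these 5 genes were called lower in scaled covered length at both adult ages. Only scaled lengths were fitted in that setting, so its calls fall short of the rule of both scales. The scaled change of Tgfbr1 in mature adults was then -0.30 (limma adjusted p = 0.034). Between young and mature adult libraries 0 of the 8 fell in covered length with limma, where 0.540% of all genes did.

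The 8 genes held 156 merged regions, 97 of them inside a gene body. Of the 113 open in every infant library, 45 (39.8%) were open in all 6 adult libraries and 35 (31.0%) in none, where over all genes 56.9% and 17.0% of 72335 such regions were. With the same number of widest peaks taken from every library, 44 of 78 such regions at the 8 genes (56.4%) were open in all adult libraries and 16 (20.5%) in none, and over all genes 71.0% and 9.99% of 48683. Without the 2 libraries that differed from the rest, 38 regions of the 8 genes were in every infant and no adult library and 50 in all libraries used. With fewer adult libraries to meet, neither count could fall, so this setting does not test them. Counted over all merged regions, those in every infant and no adult library were 9.70% and those in all 9 libraries 32.4%. Of the 35 lost regions 1, that over the Gdf10 start, had its centre within 1 kb of a gene end, and over all genes 862 of the 12315 lost regions (7.00%) did. In infants the retained regions had a median of 786 bp covered and the lost ones 348 bp. Over all genes the same medians were 751 and 343 bp.

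**Figure D4:**
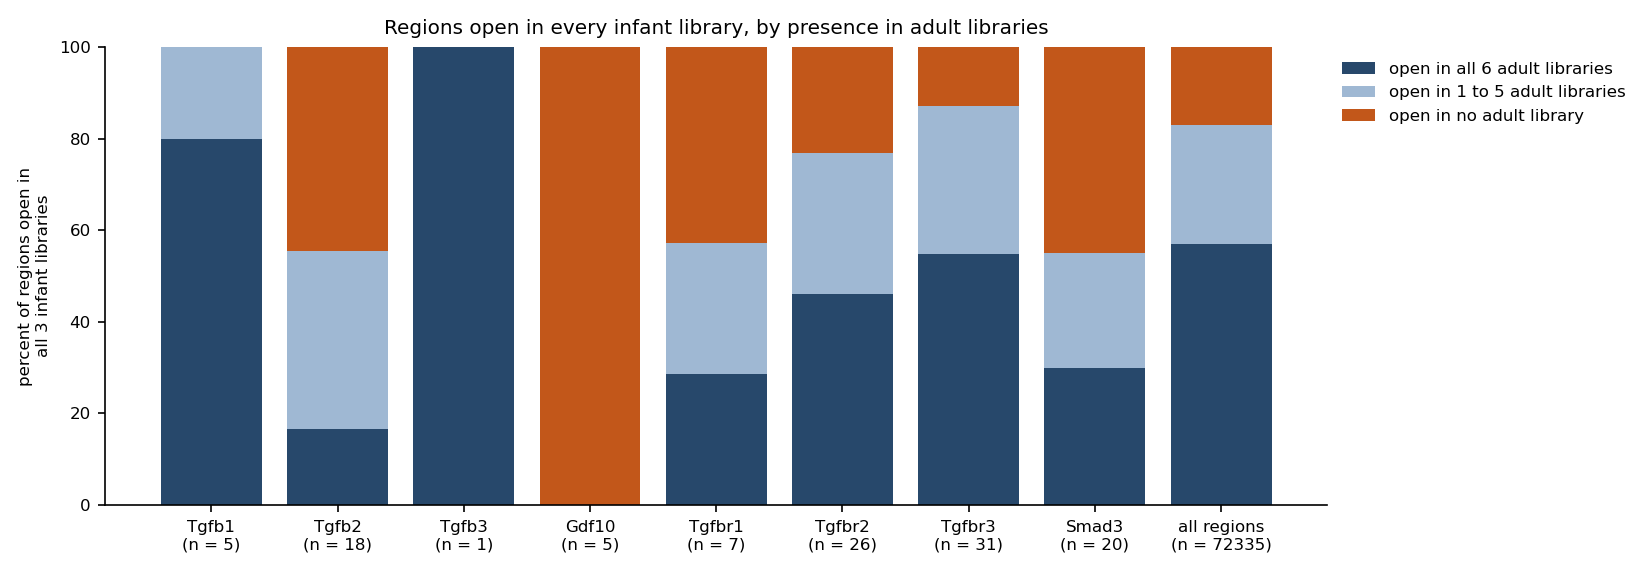
Percent of the regions open in all 3 infant libraries (vertical axis) that were open in all 6 adult libraries, in 1 to 5 of them or in none, for each of the 8 genes and for all regions, with the number of regions in parentheses. The 5 Gdf10 regions are all in the class open in no adult library, and Tgfb1 and Tgfb3 have none there.

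Of the 45 regions open in all 9 libraries, 42 were narrower in mature adult than in infant libraries before centring, as were 32916 (80.0%) of the 41144 such regions of all genes. On both the centred and the uncentred scale 5 of the 45 had fallen in width in mature adults, where 6.81% of all such regions did, and 0 of the 45 in young adults, where 2.09% did (limma over 41144 regions). Smad3 and Tgfbr2 each held 2 of the 5, and Tgfbr3 held 1. At Tgfbr2, 52.5 kb downstream of the start (chr9:116122184-116123536), the width was 1092, 1324 and 1131 bp in infants, 841, 642 and 695 bp in young adults and 455, 192 and 494 bp in mature adults (centred change -1.47 ± 0.33 SE, limma adjusted p = 0.022). At Smad3, 45.5 kb upstream (chr9:63802978-63803914), it was 845, 689 and 921 bp, then 523, 462 and 251 bp, then 262, 259 and 328 bp (-1.25 ± 0.24 SE, limma adjusted p = 0.012). The Tgfbr3 region lay 18.5 kb beyond the gene (chr5:107087258-107088836) and had 1578, 1498 and 1499 bp in infants, 1251, 1339 and 1068 bp in young adults and 708, 859 and 1157 bp in mature adults. The count of 5 rests on single libraries: on the centred scale it was 1 without infant replicate 1, 3 without infant replicate 2, 2 without infant replicate 3 and 3 without mature adult replicate 1; without the 2 libraries that differed from the rest, a setting also added after seeing the data, it was 5. Uncentred, 3 of the 45 had narrowed in young adults and 12 in mature adults, where 5.80% and 16.4% of all such regions had.

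Marker genes of other cell types in the lung were counted in the same libraries. Of all genes tested, 9.27% fell in young adults and 13.8% in mature adults. The 8 fibroblast markers examined summed to 61 to 67 peaks in infants, 21 to 26 in young adults and 19 to 20 in mature adults. Of the 6 tested, 5 fell in young adults and 3 in mature adults. Dcn, a matrix proteoglycan of fibroblasts, had 1, 0 and 1 peaks in infants and 0 in all adults, and Lum had 0 in all 9 libraries. Both had too few peaks to be tested. The 8 mural cell markers, all tested, summed to 49 to 51, 24 to 29 and 25 to 28 peaks, with 4 and 3 fallen and Myh11 risen in mature adults. Among the markers that fell, Tbx5, Pdgfrb and Des reached the mean of 1 peak needed for testing through infant peaks alone. For these genes only a fall could be called. Epithelial markers summed to 33 to 43, 16 to 25 and 17 to 19 peaks with Sftpc at 0 throughout and 1 fallen in mature adults, and mesothelial markers to 13 to 15, 6 to 9 and 4 to 5 with Msln at 0 throughout and 1 fallen at both adult ages. The 7 immune markers stayed at 10 to 11, 8 to 13 and 8 to 9 peaks, with Lyz2, Itgam and Cd68 at 0 in every library. The lymphatic markers stayed at 22 to 24, 18 and 17 to 19, with Pdpn at 0 and 1 fallen in young adults. Enough peaks for testing were held by 4 of 6 epithelial, 2 of 3 mesothelial, 3 of 7 immune and 3 of 4 lymphatic markers. The part of these markers in the falls of Gdf10, Tgfb2, Tgfbr2 and Smad3 was not tested. In sorted bulk cells, fewer cells with a region open and less opening per cell cannot be told apart.

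Of 58 further genes of the pathway 55 were tested, and 10 fell and 0 rose in mature adult libraries, where 13.8% of all genes fell. In young adult libraries, where 9.27% of all genes fell, 7 fell and 1 rose, Ski, a repressor of Smad signalling, from 14, 14 and 15 peaks in infants to 19, 18 and 17. The median scaled change over the list was -0.10 in young adults and 0.00 in mature adults, and unscaled -0.50 and -0.49. Among 11 genes of latency and activation 3 fell: Ltbp1 (34, 32 and 29 peaks in infants, 17, 20 and 19 in mature adults) and Ltbp2 (11, 11 and 11, then 1, 3 and 2), matrix proteins of the latent TGF-beta binding family, and Itgb6 (10, 8 and 10, then 4, 5 and 3), an integrin chain that activates latent ligand. Among 9 receptors and co-receptors 2 fell: Acvr1, a type I receptor (21, 16 and 17, then 7, 8 and 8), and Bambi, a decoy receptor (7, 7 and 7, then 2, 3 and 2). The endothelial receptor pair did not pass the test: Acvrl1 had 12, 12 and 10 peaks in infants and 9, 10 and 8 in mature adults, and Eng 9, 7 and 8 and then 7, 8 and 4. Their scaled changes, 0.20 and 0.15, became -0.32 and -0.36 unscaled.

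Among 17 Smads and regulators 2 fell in mature adult libraries. For this and the next lists the share of all genes that fell there was 13.8%. Smad5, a transducer of bone morphogenetic protein signals, went from 9, 8 and 9 peaks to 2, 3 and 4. Pmepa1, an inhibitor of the pathway, had 16, 16 and 18 peaks in infants, 9, 9 and 8 in young adults and 5, 5 and 5 in mature adults. It was the 1 gene of the list that also fell between young and mature adults (scaled change -0.63, limma adjusted p = 0.019). In that comparison 0.644% of all genes fell. Of the targets 3 of 11 tested fell, or 4 of 12 with Ltbp2, which is a target as well: Twist1, a mesenchymal transcription factor (3, 1 and 3, then 0 in each mature adult library), Fn1, fibronectin (6, 4 and 6, then 2, 1 and 1), and Tgfbi, a secreted matrix protein (23, 18 and 18, then 9, 9 and 9). None of the 7 other ligands and antagonists tested fell.

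**Figure D5:**
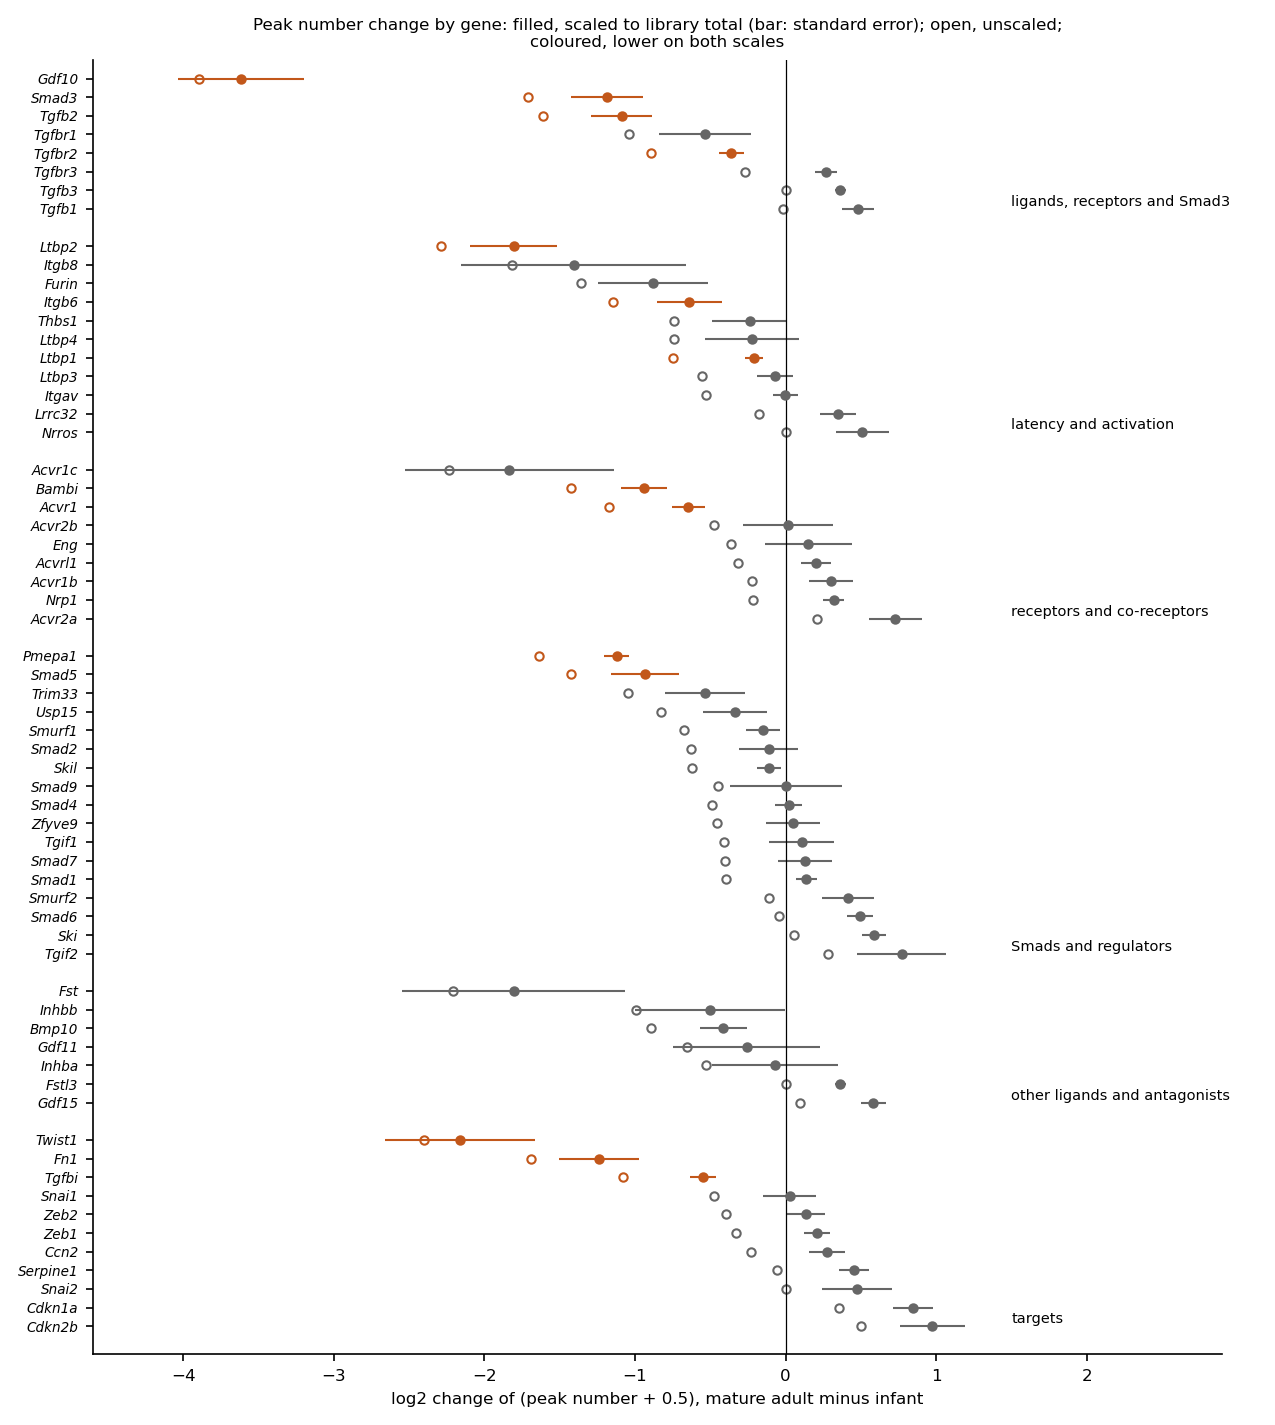
Change in peak number, on the log2(number + 0.5) scale (horizontal axis), in mature adult against infant libraries for each tested gene, by role: filled points are scaled changes with their standard error, open points unscaled changes, and coloured genes fell on both scales. Gdf10, at -3.62, and Twist1, at -2.16, lie lowest among the scaled changes.

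The genes whose peak numbers over the 9 libraries were closest to each fallen gene, by the summed absolute difference, are given as a description. For Gdf10 these were Sema4f and Vsnl1, with a difference of 3 peaks in all, and P4ha3 with 4. Vsnl1 had 8, 7 and 6 peaks in infants and 0 in all adults. For Smad3 the closest was Tead1, a transcription factor of the Hippo pathway, at 8 peaks (29, 23 and 25 in infants, 10, 11 and 8 in young adults, 6, 9 and 9 in mature adults), followed by Kank1 and Adamts17 at 15. For Tgfbr2 they were Meis2 at 7, Fbxl7 at 8 and Shb at 12, and for Tgfb2 Parva at 13 and Dkk2 and Pja1 at 14. Pearson's r over the 9 libraries ran from 0.964 (Adamts17) to 0.993 (Tead1). All of these points share the same libraries and list lengths.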

How the data were processed

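ATAC-seq peak lists of 9 libraries of sorted mouse lung endothelial cells were used, 3 per age, grouped by sample title. The deposited lists give positions, per the file headers: chromosome, start and end, with nothing on peak strength. Tools named in the submitters' processing notes, per the labels, are Picard, Bowtie2 and cutadapt, with no version given, and the build is mm10. How peaks were called, at which threshold and with what read shift is not given in the sources used here. Whether starts count from 0 or 1 is not stated, so positions may be off by 1 bp. Between 31.0% and 38.9% of a library's intervals filled several rows, and each was counted once; the narrowest peak was 150 bp.

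Between 90.5% and 93.6% of peaks were assigned to a gene, by RefSeq gene ends on GRCm38.p6; a centre inside several genes went to the gene with the nearer end. Peaks of all libraries that overlapped by 1 bp were merged into regions. Tests used limma 3.58.1 in R 4.3.3 (moderated, mean-variance trend, Benjamini-Hochberg) over all 9 libraries, on log2(number + 0.5) for genes averaging 1 peak or more, log2(covered bases + 100), and log2 width of regions open in all 9. Python 3.11.15 did the rest, and the tests were tested on simulated data. The main fit did not pair libraries by replicate number. Same-numbered libraries' deviations correlated between -0.17 and 0.17, and those of other libraries of different ages between -0.23 and 0.28. These values cannot exclude a pairing.

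All 8 genes were named, with Eng, Acvrl1 and the further pathway genes that passed on both scales in mature adults, the 3 closest genes to each fallen member, and for each gene the start region and the widest lost or gained one. Members and lists were chosen with earlier results of these data known. Ski, the region inside Tgfb2, single-library regions, the retained regions and the regions that narrowed were named after their values were seen. Without a genome sequence, regions were not searched for motifs and exons and introns were not told apart.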

Additional observations from a re-analysis of the deposited data

How the results depend on the processing

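Peak lists without depth or scores limit these results: a shorter list can mean fewer reads, and scaling to its length raises genes whose number stayed the same. With scaled numbers 1351 genes were lower and 3705 higher in young adults, and 1999 and 4340 in mature adults; unscaled the numbers were 2527 and 164, and 4242 and 209. In covered length they were 1749 and 3773, and 2711 and 4915, and unscaled 5542 and 134, and 8029 and 175. Gdf10, Tgfb2, Tgfbr2 and Smad3 passed at both adult ages under every alternative for peak number, leaving out each library included, except that Tgfbr2 did not with intergenic peaks within 10 kb, and that with peaks inside genes, whether or not those within 1 kb of a gene end were left out, Tgfbr2 did not and Gdf10 had too few to be tested. The cause of the changes below was not tested.

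All genes called in either direction on scaled numbers were 5056 in young adults against infants. They were 2691 unscaled, 1392 with the 59793 widest peaks of each library, 2355 with rows as deposited, 2519 with a mean of at least 2 peaks and 2458 with peaks inside genes over 1 kb from the ends, an alternative chosen after seeing the data. In mature adults the 6339 calls became 2267 with the widest peaks, 3549 with a mean of at least 2 and 3119 with those peaks inside genes. Between the adult ages the 122 calls became 39 with a mean of at least 2, 542 when young adult replicate 3 and mature adult replicate 1 were both left out, and 101 to 414 when 1 library was, the most without young adult replicate 3. In covered length, leaving out a library gave 3438 to 5832 calls in young adults, 5978 to 8192 in mature adults and 24 to 681 between adult ages, where 133 were called in the full fit. All 8 members were lower in unscaled covered bases in mature adults. For widths the 2137 calls in young adults became 848 to 2440, the 8553 in mature adults 2411 to 10567 and the 52 between adult ages 7 to 270. Not centred, 3 member regions were narrower in young adults and 12 in mature adults; on the centred scale, where 0 and 5 were called, leaving out a library gave 0 to 1 and 1 to 5. Of member regions, 16 instead of 35 were lost in all adults among the widest peaks. The region gained in all adults numbered 0 when at least 50% of it had to be covered. It numbered 2 when the same 2 libraries were left out, which can only add such regions.

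Leaving out the same 2 libraries, added for these measures after seeing the data, gave 795 calls in covered length and 275 in width between adult ages.

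With the replicate number as a block, the calls between adult ages were 66 in peak number, 48 in covered length and 6 in width; width calls were 1281 in young adults, with 1 member region, and 5183 in mature adults. The block left the 4 members called in peak number.

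Some changes turned in sign. In young adults, unscaled peak numbers gave -0.15 for Tgfbr3, -0.15 for Eng and -0.26 for Acvrl1; the widest peaks gave -0.0115 for Eng and 0.0803 for Smad5; rows as deposited gave -0.10 for Tgfb3; peaks inside genes gave -0.0474 for Acvrl1, 0.26 for Fn1 and 0.56 for Tgfbi, and those over 1 kb from the ends -0.1334 for Acvrl1 and again 0.56 for Tgfbi. In mature adults, unscaled numbers gave -0.0162 for Tgfb1, -0.27 for Tgfbr3, -0.36 for Eng and -0.32 for Acvrl1. The widest peaks gave -0.10 for Tgfb1 and -0.17 for Eng, peaks inside genes gave 0.0249 for Tgfbr2, -0.0321 for Acvrl1 and 0.22 for Tgfbi, those over 1 kb from the ends -0.1457 for Acvrl1 and again 0.22 for Tgfbi, and leaving out 1 library gave -0.0137 (without mature adult replicate 2) to 0.4387 for Eng. Unscaled covered length gave -0.10 and -0.23 for Tgfb1, -0.45 and -0.35 for Tgfb3 and -0.29 and -0.39 for Tgfbr3 in young and mature adults. Leaving out 1 library gave -0.0446 to 0.0614 for Tgfb3 in young adults, below 0 without infant replicate 1, infant replicate 2 or young adult replicate 3, and -0.0446 without young adult replicate 3 together with mature adult replicate 1.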
